A study of Arabidopsis thaliana with 12 samples.

Results

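The response of the Arabidopsis thaliana tpst mutant to a high dose of phytosulfokine (PSK) was measured across all genes, by setting 3 libraries of seedlings given 1 µM PSK against 3 libraries of untreated tpst seedlings. These were 6 of the 12 libraries of the series, chosen by their treatment labels, and 20506 of the 32833 genes listed had enough counts for a test. Every library came from whole seedlings 7 days old, grown in liquid medium. The 1 µM group was tpst with 1 µM PSK in the medium for 5 h, and it was set against tpst with no PSK. The remaining libraries were 3 of tpst with 100 nM PSK for 5 h and 3 of untreated wild type Col-0. The labels give the untreated groups a time of 0, whereas the methods describe a water mock for them, so the hour of their harvest relative to the treated seedlings is not settled and time after handling cannot be told apart from PSK. The mutant is a single T-DNA insertion line (tpst-1), each library was made from an independent biological replicate, and the protocol text speaks of separated shoots and roots although every sample is labelled Seedling.

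PSK is a secreted pentapeptide hormone with sulfate groups on both of its tyrosines. The sulfation is made by the tyrosylprotein sulfotransferase TPST, which also acts on other secreted peptides, so tpst lacks the active forms of all of them and PSK restores only one. The receptor kinases PSKR1 and PSKR2 perceive PSK at the plasma membrane, and the hormone is known for promoting root and cell elongation and for altering immune responses. The genomic stretch that codes for the PSK pentapeptide, whose sulfated form was supplied, was found in 5 of the 6 precursor genes searched (RefSeq genome, TAIR10 coordinates), and is shown to mark that the genes encode the same peptide with different codons. The symbols PSK3, PSK4 and PSK6 follow RefSeq, since the deposited table assigns them to other loci.
PSK1 (AT1G13590, chr1:4648577-4648591, plus strand): tacatctatacacaa
PSK2 (AT2G22860, chr2:9738045-9738059, plus strand): tacatctatacccag
PSK3 (AT3G44735, chr3:16291403-16291417, minus strand): tatatttacacacag
PSK4 (AT3G49780, chr3:18466225-18466239, plus strand): tacatttatactcag
PSK5 (AT5G65870, chr5:26352026-26352040, plus strand): tacatctacactcaa

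Counts per library summed to between 17066292 and 19993257 in the 1 µM group and to between 20133278 and 24646592 in untreated tpst, so the treated libraries were the shallower ones. Levels are CPM, counts scaled to a common library size with the TMM correction, and ± marks the standard deviation (SD) of the 3 libraries of a group. Changes are fitted log2 differences of 1 µM PSK minus untreated tpst with their standard error (SE). A gene was called changed at an adjusted p under 0.05 in the quasi-likelihood test of edgeR. TPST itself (AT1G08030) was read at 8.75, 9.26 and 7.10 CPM in the 1 µM libraries, against 6.70, 7.61 and 8.14 CPM in untreated tpst. Col-0 libraries held 16.9, 17.03 and 17.3 CPM, above every tpst library named. The shoot photosynthesis markers summed to 56970 to 58280 CPM in the 1 µM group and 55510 to 56940 CPM in untreated tpst, and the root markers to 2671 to 2845 CPM in the 1 µM group and 2739 to 2882 CPM in untreated tpst. Of the 20 shoot markers 2 were called higher, and of the 14 root markers 1 was called higher and 1 lower. The shoot count was 6 in both fits on only the 6 libraries compared and 1 without 1 µM replicate 3 or untreated tpst replicate 1 or 2, and 2 root markers were lower without untreated tpst replicate 3. The 1 µM libraries stood apart in ribosomal RNA (rRNA), whose share of counts was 5.78-fold lower than in untreated tpst and below every other library. The sources used here do not give how the libraries were batched, so a difference in preparation of the 1 µM group cannot be told apart from PSK. In whole seedlings fewer cells of a type and less RNA per cell cannot be told apart.

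With 1 µM PSK 1323 genes were called changed, of which 615 were higher and 708 lower (6.45%, 3.00% and 3.45% of the genes tested). The shares of 3.00% higher and 3.45% lower are the background for the list counts given below. The changes were mostly small. At least 2-fold differences were reached by 90 higher and 158 lower genes (0.439% and 0.771%, together 1.21% of those tested), and the median change of all genes was 0.00 (log2). The libraries of the 2 groups did not overlap for 1303 of the 1323 called genes, beside 26.6% of all genes tested. The number of calls depended on the libraries used. Without untreated tpst replicate 2 it was 778, with 303 higher genes. The count of higher genes was 394 without 1 µM replicate 2, 376 without 1 µM replicate 3 and 399 without untreated tpst replicate 1.

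**Figure D1:**
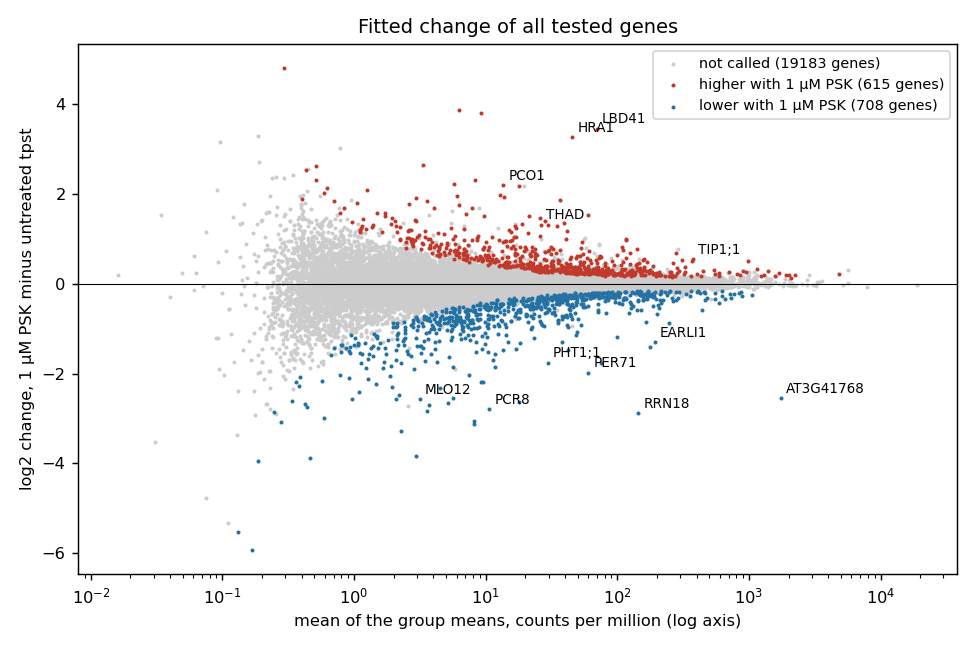
Fitted log2 change of each tested gene (1 µM PSK minus untreated tpst) against its mean level in CPM on a log axis, with the 615 called higher genes in red, the 708 called lower genes in blue and the others in grey. Most called genes lie within 2-fold, LBD41 and HRA1 stand at the top among genes of moderate level, and the ribosomal RNA genes RRN18 and AT3G41768 stand apart at the bottom.

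Genes of pattern-triggered immunity, the defence that plants start when surface receptors detect microbial molecules, were among the largest falls. Of 21 tested genes known to respond to pathogen-associated molecular patterns (PAMPs), 12 were called and all of these were lower. The median change of the list was -1.27, beside 0.00 over all genes. The study names 6 of these 12 (PCR8, IOS1, MLO12, FOX1, FOX5 and PME41) as lowered by PSK in this series, so the list is not independent evidence of its direction. Of the other 15 members 6 were lower and the median was -0.46. These others include the kinase gene FRK1, which the study also reports as lowered by PSK. They are therefore not wholly independent evidence of the direction either. Without 1 µM replicate 1, 2 members were called higher. The cadmium resistance family gene PCR8 (AT1G52200) was read at 2.15, 2.89 and 2.97 CPM with 1 µM PSK, against 20.05, 18.0 and 17.2 CPM in untreated tpst. Its groups were far apart, and the change was -2.79 ± 0.17 (SE, adjusted p = 3.55e-10). Among called protein-coding genes averaging at least 3 CPM, only AT5G48430, which has no name in the files, fell more. It had 1.59, 0.541 and 0.424 CPM with 1 µM PSK, against 6.74, 6.54 and 5.46 CPM in untreated tpst (-2.84 ± 0.31, adjusted p = 6.33e-06). The receptor kinase gene IOS1, which acts in pattern-triggered immunity, had 2.97, 4.21 and 3.23 CPM with 1 µM PSK, against 17.3, 15.2 and 14.4 CPM in untreated tpst (-2.18 ± 0.15, adjusted p = 3.78e-10). MLO12, a membrane protein of the family that conditions powdery mildew susceptibility, was low in every treated library, at 0.665, 0.662 and 1.38 CPM, against 6.15, 5.32 and 4.70 CPM in untreated tpst (-2.56 ± 0.26, adjusted p = 1.83e-07).

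Called members of higher level, EARLI1, AZI1 and PER71, had little spread within each group. EARLI1 and AZI1 code for neighbouring lipid transfer-like proteins, the second of which is needed for priming of systemic immunity. EARLI1 had 110.8, 105.9 and 115.7 CPM with 1 µM PSK, against 273.0, 268.7 and 279.3 CPM in untreated tpst. The change was -1.30 ± 0.06 (adjusted p = 7.18e-14). AZI1 had 98.7, 94.2 and 95.8 CPM with 1 µM PSK, against 274.0, 254.5 and 239.4 CPM in untreated tpst (-1.41 ± 0.07, adjusted p = 1.33e-12). PER71, a class III peroxidase, had 24.6, 20.4 and 27.9 CPM with 1 µM PSK, against 106.8, 89.7 and 91.2 CPM in untreated tpst (-1.98 ± 0.09, adjusted p = 7.49e-11). The remaining called members were CYP81F2, WAK2, PME41, PUB22, FOX5 and FOX1. Among members that were not called, the flagellin-induced kinase gene FRK1 averaged 0.248 and 0.876 CPM in the 1 µM and untreated groups (adjusted p = 0.055), and RBOHD, the oxidase of the immune oxidative burst, averaged 116 and 101 CPM (adjusted p = 0.26).

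**Figure D2:**
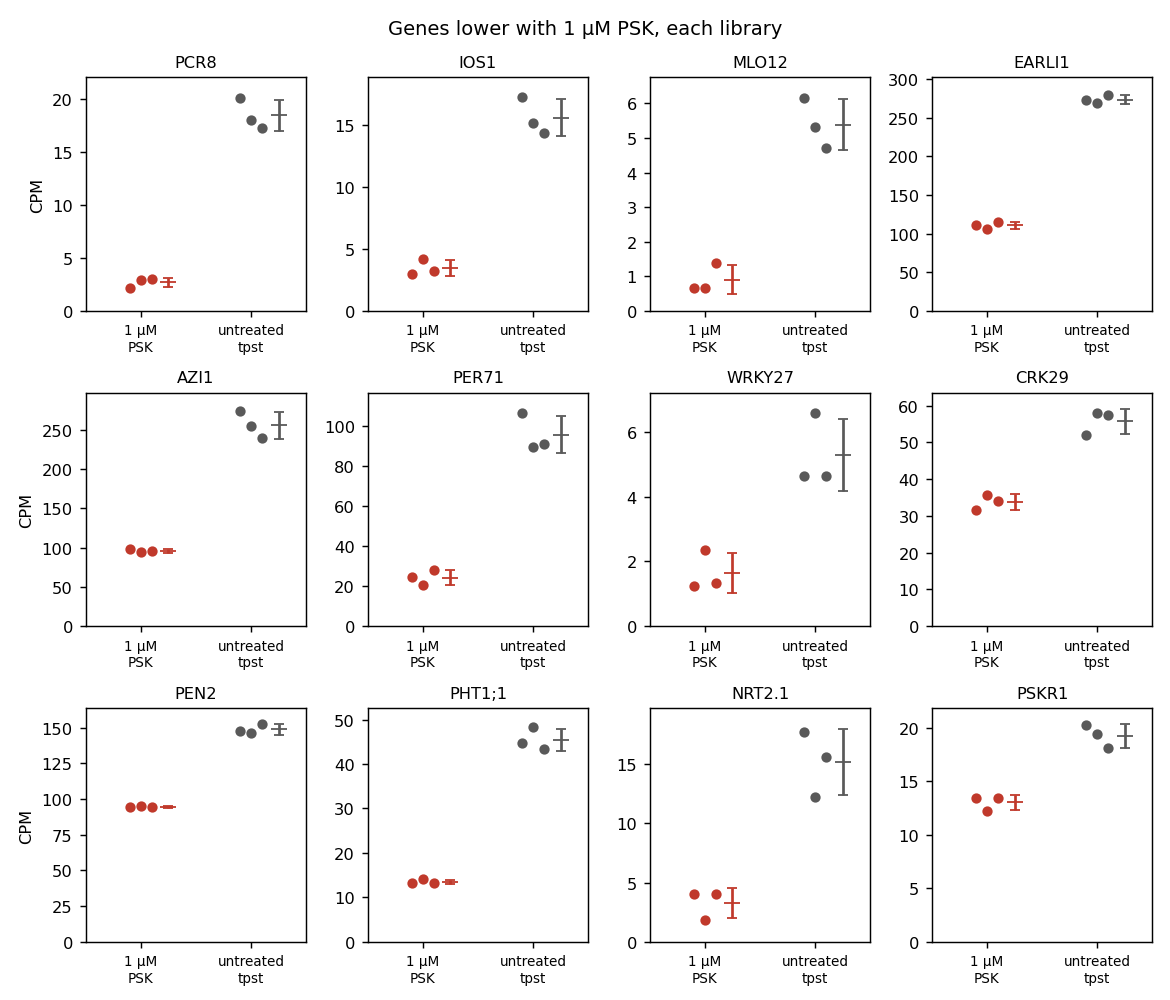
CPM of 12 genes that were lower with 1 µM PSK in each of the 3 treated libraries (red, left) and the 3 untreated tpst libraries (grey, right), with the group mean and SD beside the points and every axis starting at 0. The groups do not overlap in any panel, and PCR8, IOS1 and MLO12 lie close to 0 in the treated libraries.

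The receptors that detect the patterns formed a second list. Of 15 tested pattern-recognition receptors, co-receptors and partner kinases, 6 were lower and the median change was -0.35, and the difference between this list and the PAMP-response genes was not tested. LORE, the receptor for bacterial 3-hydroxy fatty acids, had 10.4, 7.70 and 10.9 CPM with 1 µM PSK, against 18.2, 21.0 and 17.7 CPM in untreated tpst (-0.97 ± 0.13, adjusted p = 2.59e-05). FLS2, the flagellin receptor, had 17.9, 19.7 and 19.2 CPM with 1 µM PSK, against 25.8, 30.4 and 23.8 CPM in untreated tpst (-0.50 ± 0.09, adjusted p = 0.000999). This is a fall of transcript only. In separate experiments the study found slightly more FLS2 protein after PSK in wild type and tpst, a difference that was not significant. The chitin receptor components LYK4 and CERK1, the cytoplasmic kinase BIK1 and the adaptor kinase SOBIR1 were the other falls. The count was 3 without untreated tpst replicate 3, where BIK1 and CERK1 were among the genes that missed the threshold. The shared co-receptor BAK1 averaged 51.0 and 54.6 CPM in the 1 µM and untreated groups and was not called (adjusted p = 0.52).

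Large kinase and enzyme families held further falls. Of 41 tested CRK genes, which code for cysteine-rich receptor-like kinases, 13 were called and each was lower (31.7%, beside 3.45% of all genes tested). The family median was -0.31. CRK29 had 31.6, 35.7 and 34.1 CPM with 1 µM PSK, against 51.9, 58.0 and 57.3 CPM in untreated tpst (-0.72 ± 0.07, adjusted p = 1.42e-07). The 5 neighbouring members on chromosome 4, CRK18 to CRK22, were all lower, and because these are tandem copies their counts may share fragments. Class III peroxidases, which use hydrogen peroxide in the cell wall, gave 11 lower genes and 1 higher of 59 tested (median -0.18). PER69 averaged 22.6 ± 2.97 CPM with 1 µM PSK and 62.2 ± 11.8 CPM in untreated tpst (SD, n = 3 each), while PER56 was the higher one. That call was lost without 1 µM replicate 1 or 3 or untreated tpst replicate 2 or 3.

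WRKY factors, which bind the W-box of many defence promoters, gave 12 lower and 2 higher genes of 54 tested, with a median change of -0.15. WRKY11 had 21.2, 22.6 and 25.2 CPM with 1 µM PSK, against 33.4, 37.8 and 35.8 CPM in untreated tpst (-0.63 ± 0.09, adjusted p = 2.08e-05). WRKY27 had 1.23, 2.346 and 1.33 CPM with 1 µM PSK, against 4.63, 6.59 and 4.65 CPM in untreated tpst (-1.72 ± 0.25, adjusted p = 3.83e-05). WRKY7, WRKY17, WRKY47, WRKY53, WRKY72 and 5 more fell too. The study names WRKY72 and WRKY22 of these among defence genes lowered by PSK. It also reports WRKY18, WRKY33 and WRKY40 as lowered by PSK, over treatments that include other tissues, times and doses. WRKY70, a factor placed between salicylic acid and jasmonate signalling, went the other way, with 8.90, 7.40 and 14.7 CPM with 1 µM PSK, against 4.45, 5.15 and 6.32 CPM in untreated tpst (0.97 ± 0.20, adjusted p = 0.00376). The second higher gene was WRKY18, against the direction that the study reports for it. Without 1 µM replicate 3, the highest library for WRKY70, the adjusted p of neither gene was under the threshold. In each fit that left out 1 µM replicate 2 or an untreated tpst library, WRKY70 kept its call and WRKY18 lost it. The rise of WRKY18 therefore depended on the libraries used.

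The 300 bases before the annotated gene start are shown for PCR8 and KCS12 among the largest falls and PCO1 among the largest rises, because the falling genes moved together and the W-box could be counted in them. Capitals mark the W-box, searched as TTGACT or TTGACA on both strands, so that TGTCAA and AGTCAA are the same motifs read on the other strand. The sequences come from the RefSeq genome, whose nuclear gene starts and ends were the same as in the deposited table for 32520 of 32536 matched genes, and coordinates are TAIR10.
PCR8 (chr1:19443632-19443931, minus strand): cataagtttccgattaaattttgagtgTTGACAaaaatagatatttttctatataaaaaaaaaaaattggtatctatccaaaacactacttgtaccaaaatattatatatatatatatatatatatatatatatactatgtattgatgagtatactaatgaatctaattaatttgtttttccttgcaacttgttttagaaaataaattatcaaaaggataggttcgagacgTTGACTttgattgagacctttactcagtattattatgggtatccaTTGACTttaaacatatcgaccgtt
KCS12 (chr2:12277418-12277717, minus strand): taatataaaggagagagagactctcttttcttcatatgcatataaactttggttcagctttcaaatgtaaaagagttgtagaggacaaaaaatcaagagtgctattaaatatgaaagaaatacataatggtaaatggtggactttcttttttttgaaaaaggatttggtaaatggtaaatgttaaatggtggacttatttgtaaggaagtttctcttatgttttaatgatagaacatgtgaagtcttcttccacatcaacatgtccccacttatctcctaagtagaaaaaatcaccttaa
PCO1 (chr5:4898341-4898640, plus strand): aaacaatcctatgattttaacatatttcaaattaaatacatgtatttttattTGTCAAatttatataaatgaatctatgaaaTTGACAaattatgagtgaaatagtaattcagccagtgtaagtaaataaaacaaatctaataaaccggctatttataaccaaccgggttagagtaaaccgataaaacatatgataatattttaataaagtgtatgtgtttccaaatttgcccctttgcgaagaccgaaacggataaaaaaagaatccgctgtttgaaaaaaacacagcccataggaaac
The window of PCR8 held 3 W-boxes and that of PCO1 held 2, whereas KCS12, a fatty acid elongation enzyme that fell, had no match. Over the called genes, 51.6% of 690 lower genes and 61.4% of the 145 that fell at least 2-fold had a W-box in this window, beside 37.9% of all 19930 protein-coding genes tested. Of the 608 higher genes it was 36.5%. A match describes letters only, and binding was not measured.

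Defence compounds and hormone pathways showed smaller or mixed movement. Of 17 tested genes of camalexin and indole glucosinolate metabolism, 5 were lower (median -0.33). PEN2, the myrosinase that hydrolyses indole glucosinolates, had 94.2, 95.1 and 94.3 CPM with 1 µM PSK, against 147.3, 146.0 and 152.8 CPM in untreated tpst (-0.65 ± 0.07, adjusted p = 2.65e-07), and the transporter gene PEN3 fell by 0.58 ± 0.05 on the log2 scale. IGMT2, CYP81F2 and CYP83B1 were the other falls. Among 17 salicylic acid genes WRKY70 and DMR6 were higher and PR5 was lower, and the synthesis gene ICS1 averaged 9.68 and 10.8 CPM in the 1 µM and untreated groups (adjusted p = 0.59). Neither higher call held without 1 µM replicate 3 and 1 held without untreated tpst replicate 2, while PR5 was no longer called without 1 µM replicate 2 or 3 or untreated tpst replicate 1 or 2, and 2 members were lower without 1 µM replicate 1. Of 23 jasmonate genes 2 were lower, the transcription factor gene ORA59 (-1.10 ± 0.20, adjusted p = 0.000662) and the repressor gene JAZ6 (-0.50 ± 0.11, adjusted p = 0.00392).

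Uptake of nutrients formed another group of falls. Of 11 tested nitrate and phosphate transport genes 6 were lower, with a median of -0.53. PHT1;1, a root phosphate importer, had 13.2, 14.1 and 13.2 CPM with 1 µM PSK, against 44.8, 48.3 and 43.4 CPM in untreated tpst. Its change of -1.76 ± 0.08 had the smallest p of all falls (adjusted p = 1.38e-14). NRT2.1, a high-affinity nitrate transporter, had 3.99, 1.81 and 4.03 CPM with 1 µM PSK, against 17.7, 12.2 and 15.6 CPM in untreated tpst (-2.19 ± 0.42, adjusted p = 0.015). Its partner NRT3.1 fell by 1.31 ± 0.11 on the log2 scale, and NRT1.1, PHT1;4 and NRT1.8 were also lower. PHT1;1 is close in sequence to its neighbour PHT1;2, so fragments of the copies may be shared. The nitrate reductase genes NIA1 and NIA2 were not called.

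Genes of the hypoxia response were among the largest rises. Plants sense oxygen through the PCO enzymes, which mark a group of ERF factors for breakdown, and PCO1 and PCO2 are themselves targets of those factors. LBD41, a transcription factor gene, had 79.7, 121.5 and 180.2 CPM with 1 µM PSK, against 5.69, 9.45 and 20.3 CPM in untreated tpst (3.45 ± 0.56, adjusted p = 0.00779). HRA1, a factor that restrains the same response, had 47.0, 74.9 and 123.5 CPM with 1 µM PSK, against 6.15, 6.99 and 12.6 CPM in untreated tpst (3.27 ± 0.53, adjusted p = 0.00779). PCO1 had 16.1, 20.2 and 30.5 CPM with 1 µM PSK, against 4.36, 4.34 and 6.02 CPM in untreated tpst (2.19 ± 0.31, adjusted p = 0.00257). Each of these separated the groups, yet the treated libraries spread widely, and replicate 3 was the highest in both groups for all of them.

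The tested members of the hypoxia list did not all move together. The study reports hypoxia terms as enriched among the genes raised by PSK in several of its treatments. Of 16 tested members 5 were higher, LBD41, HRA1, PCO1, PCO2 and SRO5, and ACO1, an enzyme of ethylene synthesis, was lower (-0.43 ± 0.12, adjusted p = 0.036), with a list median of 0.22. Among the fits that left out 1 library, a lower member was called only without untreated tpst replicate 3. The fermentation genes of the list were not called. ADH1 averaged 33.8 and 31.0 CPM in the 1 µM and untreated groups (adjusted p = 0.88), and PDC1 averaged 35.5 and 17.56 CPM (adjusted p = 0.12). Other large rises were in genes without a name in the files. These were not on the hypoxia list, and whether they respond to low oxygen was not examined. AT1G33055 had 6.45, 9.39 and 19.5 CPM with 1 µM PSK, against 0.367, 0.736 and 1.37 CPM in untreated tpst (3.86 ± 0.68, adjusted p = 0.0106). AT4G10265 changed by 3.80 ± 0.68 (adjusted p = 0.013). Neither kept its call without untreated tpst replicate 2, where the adjusted p was 0.062 for AT1G33055 and 0.072 for AT4G10265.

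**Figure D3:**
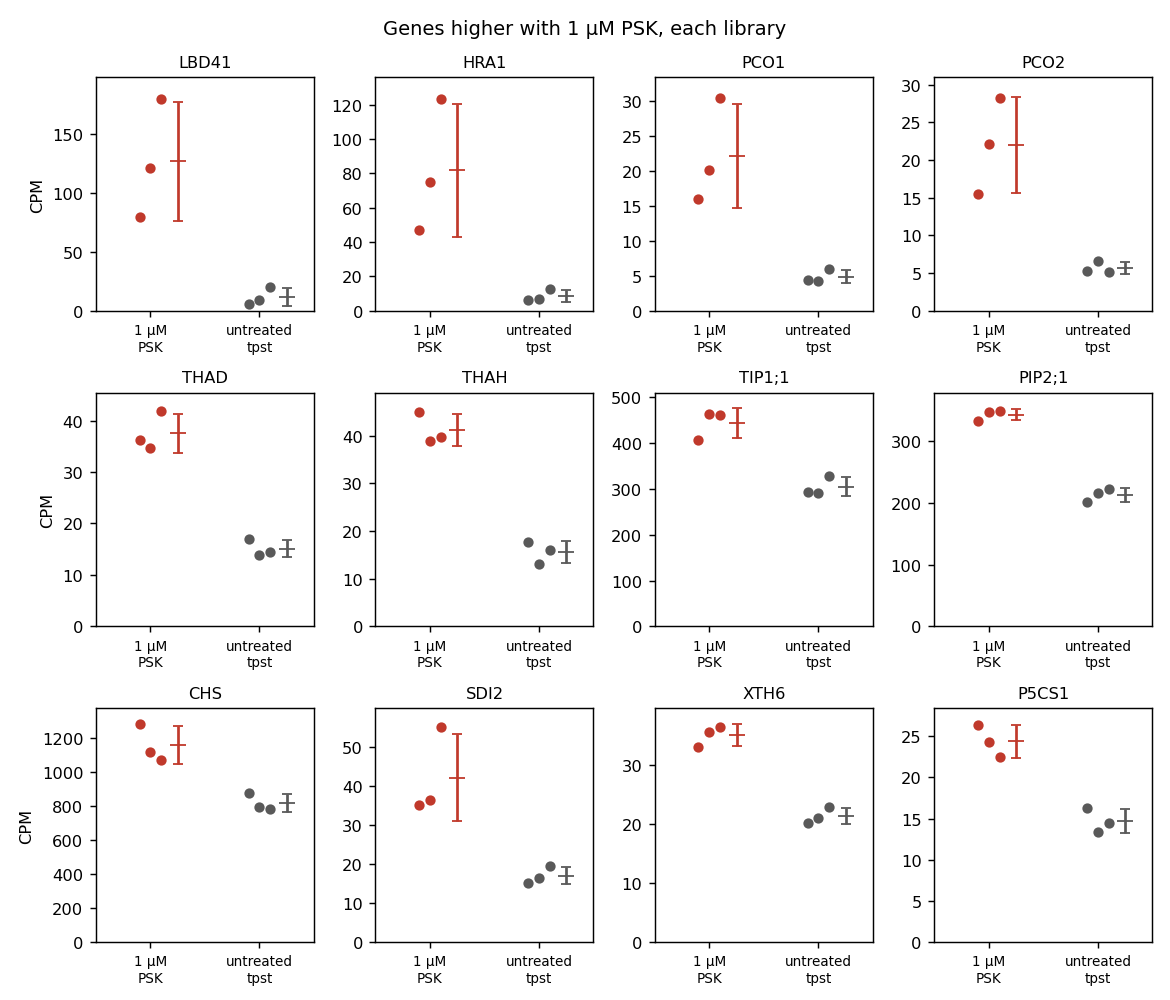
CPM of 12 genes that were higher with 1 µM PSK in each of the 3 treated libraries (red, left) and the 3 untreated tpst libraries (grey, right), with the group mean and SD beside the points and every axis starting at 0. LBD41, HRA1, PCO1 and PCO2 spread widely over the treated libraries, while THAD, THAH and PIP2;1 rose with little spread.

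The thalianol pathway, a root triterpene route, rose as well. THAA1, THAD, THAH and THAS1 stand side by side on chromosome 5, whereas THAR1 lies on chromosome 3. Of 7 tested genes 6 were higher, with a median of 1.104. THAS1, the synthase that makes thalianol, had 63.7, 50.4 and 55.5 CPM with 1 µM PSK, against 29.3, 17.9 and 19.6 CPM in untreated tpst (1.35 ± 0.20, adjusted p = 0.00435). THAD, a desaturating enzyme of the pathway, had 36.2, 34.7 and 41.8 CPM with 1 µM PSK, against 16.97, 13.9 and 14.4 CPM in untreated tpst. It had the smallest p of all rises (1.32 ± 0.10, adjusted p = 7.91e-10). The hydroxylase gene THAH, the reductase genes THAR1 and THAR2 and the acyltransferase gene THAA1 rose as well, and THAA2 was not called (0.56 ± 0.22, adjusted p = 0.14). The study drew attention to this pathway in these samples, so the list is not independent evidence of its direction. Of the 4 tested genes of the related marneral and arabidiol routes edgeR called 0, with 2 at an unadjusted p under 0.05 and 0 by DESeq2.

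Most of the water channel genes rose. Of 19 tested aquaporins of the plasma membrane (PIP) and vacuole (TIP) 13 were higher and the others had a positive change without a call, and the median was 0.38. TIP1;1 had 406.9, 463.9 and 461.1 CPM with 1 µM PSK, against 294.5, 290.8 and 328.7 CPM in untreated tpst (0.54 ± 0.05, adjusted p = 1.6e-07). PIP2;1 had 332.3, 348.0 and 349.5 CPM with 1 µM PSK, against 201.2, 215.6 and 222.9 CPM in untreated tpst (0.69 ± 0.08, adjusted p = 5.86e-05). The steepest rise among the called members was TIP2;3, at 5.60 ± 1.57 CPM with 1 µM PSK and 1.54 ± 0.593 CPM in untreated tpst (SD, n = 3 each). Several PIP genes are close copies, so single members are less certain than the family. The cell wall enzymes of the XTH family gave 3 higher genes of 27 tested and the expansins 1 higher, EXPA7, and 1 lower, EXPA4, of 14. The call of EXPA4 was lost whichever of the 6 libraries was left out, and that of EXPA7 without 1 µM replicate 1 or 3 or untreated tpst replicate 2 or 3.

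**Figure D4:**
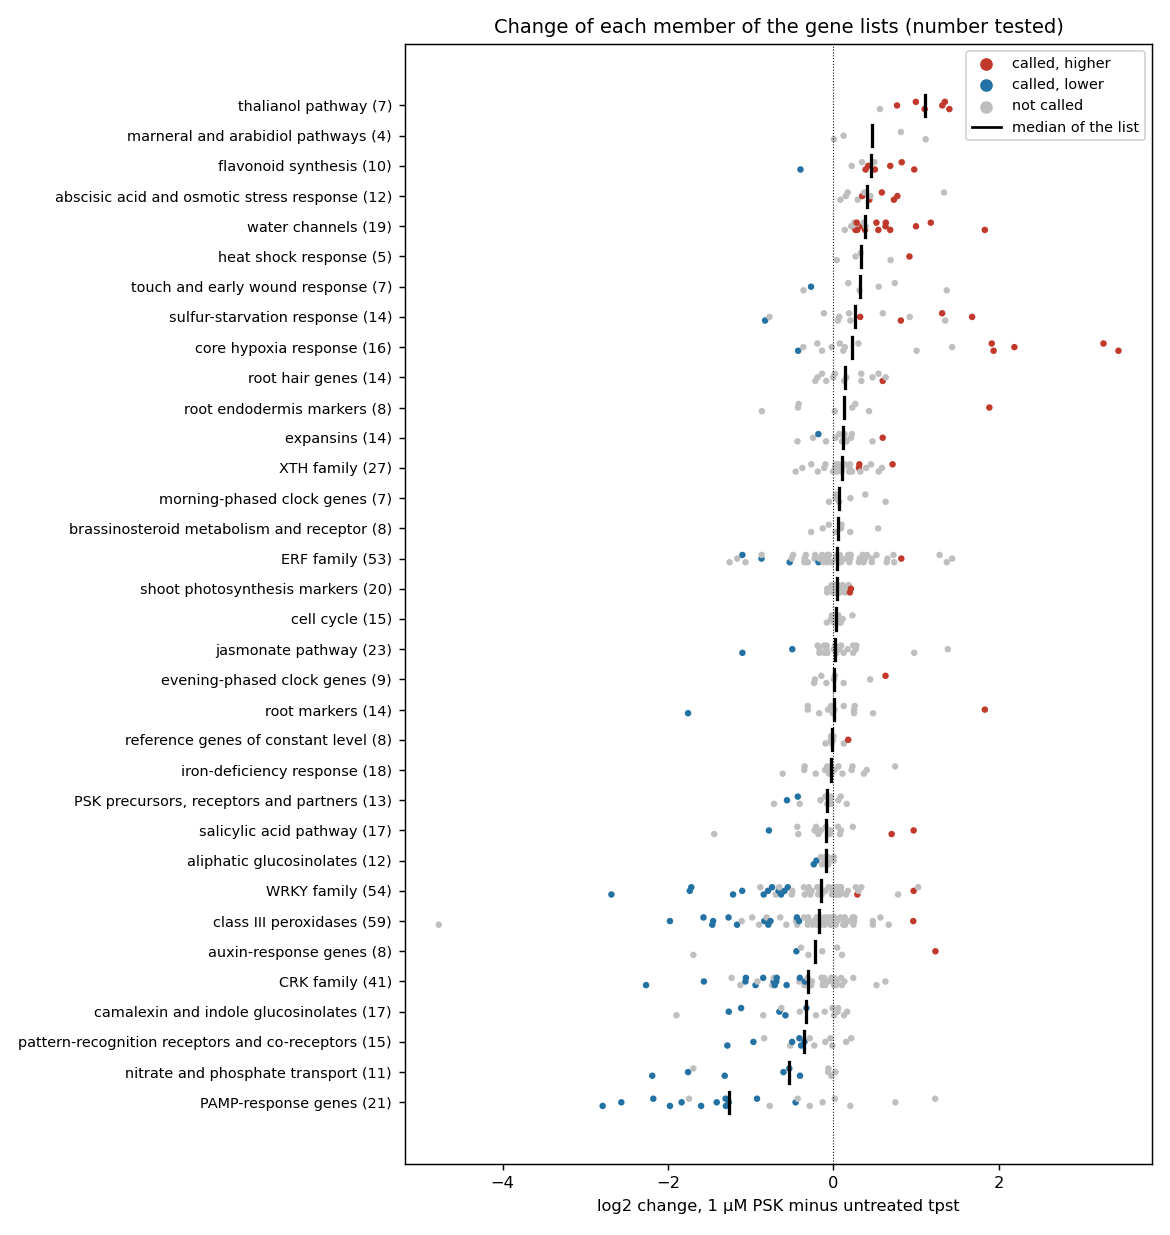
Fitted log2 change (1 µM PSK minus untreated tpst) of each tested member of 34 gene lists and families, in red where called higher, blue where called lower and grey where not called, with the median of each list as a black bar and the lists ordered by it. PAMP-response genes lie lowest with a median of -1.27, and the thalianol pathway highest with a median of 1.104.

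Metabolic and stress genes made up smaller groups of rises. Of 10 tested genes of flavonoid synthesis 6 were higher and 1, the regulator MYB111, was lower (median 0.46). MYB111 was not called without 1 µM replicate 2 or 3 or untreated tpst replicate 1 or 2. CHS, the entry enzyme of the route, had 1282, 1119 and 1070 CPM with 1 µM PSK, against 875.4, 793.8 and 782.1 CPM in untreated tpst (0.50 ± 0.07, adjusted p = 5.67e-05). Of 14 sulfur-starvation genes 4 were higher and the sulfate transporter gene SULTR1;2 was lower (-0.83 ± 0.14, adjusted p = 0.00271). LSU2, a low-sulfur marker, had 43.5, 35.9 and 40.3 CPM with 1 µM PSK, against 25.7, 20.3 and 22.2 CPM in untreated tpst (0.82 ± 0.12, adjusted p = 0.000316), and without untreated tpst replicate 2 the list kept 2 higher calls. Of 12 abscisic acid and osmotic stress genes 5 were higher (median 0.40). That count was 3 without 1 µM replicate 2 or untreated tpst replicate 3. Among the called members the dehydrin gene LTI30 had the largest change (0.77 ± 0.13, adjusted p = 0.000239). The proline synthesis gene P5CS1 had the smallest p (0.73 ± 0.10, adjusted p = 1.78e-05).

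Several of the largest and most precise changes lay outside these lists. AT3G46280, annotated as kinase-like, had 4.86, 5.54 and 4.61 CPM with 1 µM PSK, against 34.3, 33.9 and 24.0 CPM in untreated tpst (-2.63 ± 0.16, adjusted p = 6.23e-09). The leucine-rich repeat kinase genes AT1G05700 and AT1G51790 changed by -2.54 ± 0.20 and -2.33 ± 0.20. KCS12 had 0.972, 1.504 and 1.75 CPM with 1 µM PSK, against 7.98, 8.55 and 10.2 CPM in untreated tpst (-2.66 ± 0.22, adjusted p = 5.55e-09). All of these kept their groups well apart. UGT72E1, a glucosyltransferase of lignin precursors, had 34.1, 28.8 and 33.2 CPM with 1 µM PSK, against 68.4, 68.5 and 65.4 CPM in untreated tpst (-1.07 ± 0.07, adjusted p = 2.43e-11). Among the rises, the methyltransferase gene AT5G37990 had 9.16, 9.08 and 10.8 CPM with 1 µM PSK, against 2.89, 2.25 and 2.38 CPM in untreated tpst (1.95 ± 0.18, adjusted p = 1.96e-08). JAL33, a jacalin-related lectin, had 133.9, 140.6 and 139.9 CPM with 1 µM PSK, against 95.7, 94.2 and 88.6 CPM in untreated tpst (0.57 ± 0.06, adjusted p = 8.15e-07), and the protease gene RD19A rose by 0.47 ± 0.05 on the log2 scale.

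Other processes showed few calls or none. By edgeR 0 of 15 cell cycle genes, 0 of 8 brassinosteroid genes, 0 of 7 morning clock genes and 0 of 18 iron-deficiency genes were called. At an unadjusted p under 0.05 these lists had 1, 1, 1 and 3 members, and DESeq2 on 12 libraries called 0, 0, 0 and 1. Without untreated tpst replicate 3 the brassinosteroid and iron lists had 1 call each, and without 1 µM replicate 1 the brassinosteroid and morning clock lists had 1 each. Single calls stood in several lists. Of 12 aliphatic glucosinolate genes CYP79F1 and BCAT4 were lower, and neither was called without 1 µM replicate 1 or 2 or untreated tpst replicate 3. Of 8 auxin-response genes IAA19 was higher and IAA2 lower, of 5 heat shock genes HSFA2 was higher, and of 7 touch genes TCH3 was lower. Each of these lost its call without at least 1 library. Of 53 ERF genes ERF6 was higher and 4 were lower (1.89% and 7.55%, beside 3.00% and 3.45% of all genes tested). Among the fits that left out 1 library, ERF6 kept its call only without untreated tpst replicate 3, where 2 ERF genes were higher, and 2 were lower without untreated tpst replicate 2. Of 14 root hair genes EXPA7 was higher, and of 8 endodermis markers CASP5 was higher at 0.716, 0.481 and 0.689 CPM with 1 µM PSK, against 0.0918, 0.164 and 0.253 CPM in untreated tpst. The calls of CASP5 and of ACT2, the 1 higher gene of 8 reference genes (0.18 ± 0.05), were lost whichever library was left out. Of 253 genes named RPL or RPS for ribosomal proteins 5 were higher and 3 lower (1.98% and 1.19%, each below the share over all genes tested). Among 9 evening clock genes PRR5 was higher (0.63 ± 0.11, adjusted p = 0.000627), and without 1 µM replicate 1 the count was 2. Of the PSK pathway itself, 2 of 13 tested genes were lower. PSKR1 had 13.4, 12.2 and 13.5 CPM with 1 µM PSK, against 20.3, 19.4 and 18.1 CPM in untreated tpst (-0.56 ± 0.12, adjusted p = 0.00271), and PSKR2 averaged 18.5 and 20.7 CPM in those groups and was not called (adjusted p = 0.37). AHA2, a plasma membrane proton pump that associates with the receptor, fell by 0.43 ± 0.05 on the log2 scale (adjusted p = 4.03e-07). The precursor genes PSK1 to PSK5 were not called, with changes between -0.72 for PSK1 and 0.06 for PSK3, and PSK6 (AT4G37720) had 0 counts in both groups. The study reports PSK1, PSK4 and PSKR1 as lowered across PSK treatments that include other tissues, times and doses. Of these only PSKR1 was called here, and the change of PSK1 was also negative. The deposited table assigns the symbol PSK4 to another locus, so the study may mean a different gene by it. On the length-corrected scale of the deposited FPKM, PSKR1 averaged 3.60 with 1 µM PSK and 5.30 in untreated tpst, and PSKR2 averaged 4.87 with 1 µM PSK and 5.41 in untreated tpst.

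rRNA showed the difference between the groups in every library. The 15 rRNA genes took 627, 577 and 532 CPM of all counts in the 1 µM libraries, against 3438, 3260 and 3332 in untreated tpst, which was 5.78-fold lower. Over all 9 libraries outside the 1 µM group the share lay between 2121 and 3494. RRN18, the mitochondrial small-subunit rRNA, had 31.4, 38.0 and 33.5 CPM with 1 µM PSK, against 239.8, 235.7 and 283.1 CPM in untreated tpst (-2.88 ± 0.15, adjusted p = 4.58e-06). Of 9 tested rRNA genes 7 were lower, as were 4 of 74 other chloroplast and 1 of 17 other mitochondrial genes. Mitochondrial genes other than rRNA summed to a mean of 10.7 CPM with 1 µM PSK and 26.6 in untreated tpst. These libraries were made from RNA selected by poly(A) tail. The part of this difference in the other results was not tested. Leaving rRNA and organelle genes out of the table, which takes their own calls with them, gave 1310 calls.

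**Figure D5:**
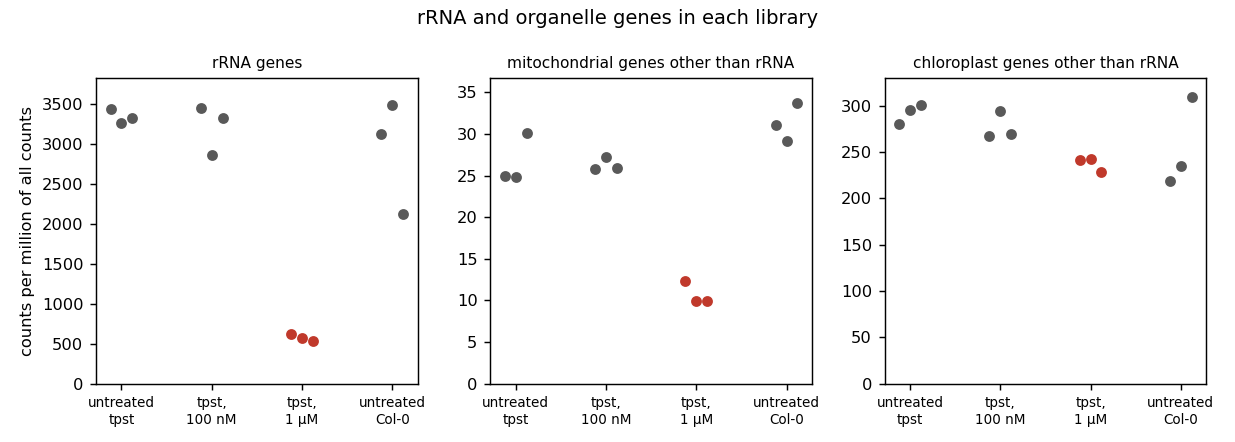
Share of all counts, in CPM, taken by rRNA genes, other mitochondrial genes and other chloroplast genes in each of the 12 libraries, with tpst by rising PSK dose and Col-0 last, and the 1 µM libraries in red. In the 1 µM libraries rRNA takes 532 to 627 CPM, below every other library.

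Set against the 100 nM group, the 1 µM libraries differed in 49 genes (0.239% of the genes tested). Of these 26 were higher (0.127%) and 23 lower (0.112%), and 13 reached 2-fold (0.0634%). The falls were led by rRNA genes and the mitochondrial ORF107A. The count was 19 without 1 µM replicate 2, 20 without 1 µM replicate 3, 17 without 100 nM replicate 1 and 30 without 100 nM replicate 2. Among the rises, CML38, a calmodulin-like protein, had 6.50, 8.36 and 13.99 CPM with 1 µM PSK, against 4.23, 5.13 and 4.50 CPM with 100 nM PSK (1.06 at adjusted p = 0.041). GAT1, a GABA transporter, had 14.5, 13.2 and 12.8 CPM with 1 µM PSK, against 7.63, 8.18 and 7.40 CPM with 100 nM PSK (0.81 at adjusted p = 0.00075). The defence and thalianol genes described above were not called between the doses, other than EARLI1. PCR8 had 4.23, 4.16 and 2.41 CPM and THAD had 37.5, 33.7 and 40.6 CPM with 100 nM PSK, and neither was called between the doses (adjusted p = 0.49 and 0.98). LBD41 had 20.03, 47.7 and 59.9 CPM with 100 nM PSK, below every 1 µM library, but the difference of 1.57 was not called either (adjusted p = 0.33).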

How the data were processed

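RNA from whole seedlings was profiled in 12 libraries, 3 per group, grouped by the treatment and genotype labels. The authors selected poly(A) RNA, trimmed reads with fastp, aligned them to TAIR10 with HISAT2 2.0.5 and assigned fragments to genes with featureCounts 1.5.0-p3. The deposited table holds whole fragment counts per gene, and a second deposited table holds FPKM that the authors computed from them. Strand and multi-mapping settings were not stated, so paralogs and overlapping antisense genes are uncertain.

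Counts were analysed with edgeR 4.0.16 in R 4.3.3. After filterByExpr 20506 genes remained, holding 99.96% of counts. Totals ran from 17066292 to 24948416 counts per library, so counting error weighs most on genes of few counts. Libraries were scaled by TMM, and a robust quasi-likelihood model with a term per group was fitted to all 12 libraries (8 residual degrees of freedom). Tests were two-sided with Benjamini-Hochberg adjustment over all genes tested, and the method was tested on simulated data. With 3 libraries a group, exact permutation could reach no p under 0.1, and each p therefore rests on the model. The study used DESeq2 (version 1.42.0 here), which was an alternative. Other alternatives were another scaling, no filter, thinned counts, only the 6 libraries compared, a replicate block, leaving out each library, and, chosen after seeing the data, leaving out rRNA and organelle genes.

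The named genes were the 12 largest rises and falls among called genes with a mean of at least 3 CPM and groups that did not overlap, the 8 of smallest p in each direction, up to 5 called members of each of 35 lists and families, the PSK genes, and the 6 largest rises and falls between the doses. Single further members are named to complete a list and were chosen after their values were seen. The members and lists were chosen with earlier results of these data known. Planned protein sequences of the precursors are not shown, and windows of 300 bases were read from the genome, 1 of which is not reported here.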

Additional observations from a re-analysis of the deposited data

Results flagged for a closer look

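The naming rules other than the one for the doses chose genes of which some are not shown above. For 11 of these genes the level differed between the doses in the direct test of 1 µM minus 100 nM (edgeR, adjusted p under 0.05, 3 libraries each). Of these, 5 were rRNA genes that were lower at 1 µM, with log2 differences of -2.74 for RRN23S.2, -2.58 for RRN18, -2.52 for AT3G41768, -2.40 for RRN23S.1 and -1.67 for RRN26. A further 4 code for ribosomal proteins, of which RPL36AB was lower (-0.36) and RPL34, RPL18 and RPS8A were higher (0.42, 0.27 and 0.21). The lipid transfer-like gene EARLI1 was lower at 1 µM by the test (-0.32), and the protease gene RD19A was higher (0.27). Between 100 nM PSK and untreated tpst the rRNA genes named here were not called, and preparation of the 1 µM libraries cannot be told apart from dose.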

How the results depend on the processing

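The number of genes changed by 1 µM PSK (1323) was within 1.5 times of that value under most alternatives, and no called gene changed sign in any. With edgeR on only the 6 libraries compared it was 2115 (1051 higher, 1064 lower), of which 1272 were among the 1323. Leaving out each library in turn gave 778 to 1038 calls, with 303 to 463 higher and 475 to 583 lower genes. At 2-fold the count (248) lay between 201 and 252 in those fits. The 49 genes that differed between the doses became 153 with DESeq2 on 12 libraries, 467 with edgeR and 452 with DESeq2 on the 6 libraries compared, 97 with no filter, 37 without rRNA and organelle genes, and 17 to 56 when each library was left out. The cause of these differences was not tested. Of 129 called named genes 94 were called under every alternative, and 123 of 1798 values lost the call, none with a change of sign. Of 952 list counts 40 moved by over 1.5 times, and 21 were above 0 where 0 had been called.

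Over all genes, replicate numbers showed little pairing of the libraries. Deviations of 1 µM and untreated libraries of the same number correlated at 0.05, 0.01 and 0.01. With the replicate block 1365 genes were called against untreated tpst and 95 between the doses. A correlation over all genes cannot show whether some genes follow the replicate number. LBD41 and HRA1 rose from replicate 1 to replicate 3 in the 1 µM, the 100 nM and the untreated tpst group.

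Thinned to the smallest library, 1248 genes were called, of which 1163 were among the 1323. In that fit 6 named genes lost the call (KIN2, HSFA2, XTH32, EXPA4, ERF6 and ERF1-1). Thinning covers only the range of depth of these libraries.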

Other observations

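Called genes of one direction stood next to each other in 14 runs of at least 3 neighbours among the tested genes (TAIR10). The longest was of 8 kinase genes on chromosome 1 (19206615 to 19261794), AT1G51790 to AT1G51860 with IOS1, each lower with 1 µM PSK. CYP71B22, CYP71B23, CYP71B3 and CYP71B24, cytochrome P450 genes on chromosome 3, were all lower, with changes of -3.07, -1.64, -0.79 and -0.84. The indole glucosinolate methyltransferase genes IGMT3, IGMT2 and IGMT4 were lower by the same test (-0.94, -1.12 and -0.50). A run of higher genes other than the thalianol cluster was GAE1, an enzyme of pectin precursor synthesis, with AT4G30450 and AT4G30460 on chromosome 4 (0.77, 0.87 and 0.77). Many of these runs are tandem copies whose counts may share fragments.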
